A study of Danio rerio with 24 samples.

Results

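The GFP+ cells of zebrafish embryos at 2 days post fertilization (dpf) were compared with the GFP- cells of the same age, to ask which transcripts mark the digestive endoderm at the earliest age of the series. The 6 arrays were chosen by their sample titles, 3 for each gate of the cell sort, and are 6 of the 24 arrays in all. The other 18 repeat the sort at 3, 4 and 6 dpf with 3 arrays per gate. Every embryo was homozygous for the insertion Tg(XlEef1a1:GFP)s854, in which regulatory DNA of the Xenopus Eef1a1 gene drives GFP, and was raised in PTU, a blocker of pigment formation. The groups are therefore GFP+ cells and GFP- cells from transgenic, PTU-treated embryos at each age. The embryos were dissociated with proteases and sorted by fluorescence, and the RNA was amplified before it was hybridized to an Affymetrix zebrafish array. The line is 1 transgene allele, and the labels give no number of embryos behind an array.

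The digestive organs of vertebrates form from endoderm, which FoxA, GATA and HNF transcription factors prepare and later drive toward liver, pancreas and gut. At this age the zebrafish gut is a rod of cells with a liver bud and the first pancreatic islet, and most of the secreting pancreas forms later. GFP of this line is known for marking these organs, so that the GFP- gate holds the rest of the embryo: brain, eye, muscle, skin, fin, blood and vessels.

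The deposited values are scores. Each array is centred on a median of 0 and scaled to an SD (standard deviation) of 1 over 15617 probe sets, so a difference of 1 is 1 array SD. The scale behind them is not known well enough for fold changes, and a score places a transcript within its array. Arrays of the GFP+ gate correlated with each other at 0.950 to 0.979, those of the GFP- gate at 0.970 to 0.972, and arrays of different gates at 0.869 to 0.915. The 3' minus 5' difference of the GAPDH control probe sets, a measure of RNA integrity and amplification, was 0.755, 0.399 and 0.527 on the GFP+ arrays, against 0.236, 0.269 and 0.266 on the GFP- arrays. That of actin overlapped between the gates, with 1.39 to 2.04 on the GFP+ arrays and 1.56 to 2.18 on the GFP- arrays. The part of RNA integrity in the results was not tested. The EGFP control probe set lay below the array median in both gates, with -0.601, -0.371 and -0.422 on GFP+ arrays and -0.420, -0.441 and -0.501 on GFP- arrays, so it offers no check of the sort. The check given here rests on the endodermal and other markers below. Their lists were chosen with earlier results of these data known, so they are not an independent check of the sort.

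Of 15502 probe sets tested, 2638 (17.0%) differed between GFP+ and GFP- cells at 2 dpf at an adjusted p under 0.05, with 1497 (9.66%) higher and 1141 (7.36%) lower in GFP+ cells. The test was limma's moderated test with group means of all 24 arrays and Benjamini-Hochberg adjustment over all probe sets. Its standard errors (SE) pool the spread within the groups of all ages, so they are not the spread at 2 dpf alone. Each call rests on that model, because the lowest p of an exact permutation test on 3 and 3 arrays is 0.1. With 1 probe set per gene, 1759 of 8793 genes (20.0%) passed, 1081 (12.3%) higher and 678 (7.71%) lower, and the median difference over all genes was 0.063 array SD. After quantile normalization the split was even, with 1271 probe sets higher and 1252 lower. As deposited 56.7% of the calls were higher, and 50.4% after that normalization. Among differences of at least 1 array SD the GFP- side was the larger, with 256 higher and 323 lower. In RNA from many sorted cells, fewer cells of a type and less RNA per cell cannot be told apart.

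The genes furthest on the GFP+ side were products of liver, pancreas and gut. The liver fatty acid binding protein gene fabp10a, a standard hepatocyte marker in zebrafish, had scores of 2.87, 2.34 and 2.96 on the GFP+ arrays, against -0.13, -0.41 and -0.01 on the GFP- arrays. The gates were far apart, with a difference of 2.91 ± 0.24 (SE, n = 3 arrays per gate, adjusted p = 2.98e-07). The trypsinogen gene prss1 of the exocrine pancreas had 2.89, 2.27 and 2.44 in GFP+ cells and 0.10, -0.36 and -0.31 in GFP- cells, a difference of 2.72 ± 0.30. The claudin gene cldn15la, a tight junction component of the intestine, had 2.50, 2.24 and 2.66 in GFP+ cells and -0.24, -0.28 and -0.10 in GFP- cells, and differed by 2.67 ± 0.32. For all of these genes every GFP- array lay near or below the array median. The galectin gene lgals2b (2.80 ± 0.29) was different in this respect, since 1 of its GFP- arrays reached 0.92 and the others -0.11 and 0.25.

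Another 6 of the leading genes encode proteins that the liver secretes. The fibrinogen gamma chain gene fgg differed by 2.74 ± 0.38, the protease inhibitor gene serpina1l by 2.71 ± 0.30, plasminogen plg by 2.68 ± 0.24, complement factor H-like cfhl4 by 2.48 ± 0.25, the bikunin precursor gene ambp by 2.36 ± 0.41 and transferrin tfa by 2.33 ± 0.22. Enzymes of liver metabolism stood beside them. Urate oxidase uox differed by 2.52 ± 0.35, liver glycogen phosphorylase pygl by 2.50 ± 0.30 and the bile acid synthesis enzyme gene cyp8b1.1 by 2.40 ± 0.29. The lipid carrier genes apoda.2 (2.62 ± 0.48) and fabp2, the fatty acid binding protein of the intestine (2.37 ± 0.31), complete the 15 genes with the largest positive difference. The third GFP+ array had the highest score of its gate for fabp10a, fgg, uox, pygl and ambp, and the second the lowest, with less than 1 array SD between them in each of these genes.

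**Figure D1:**
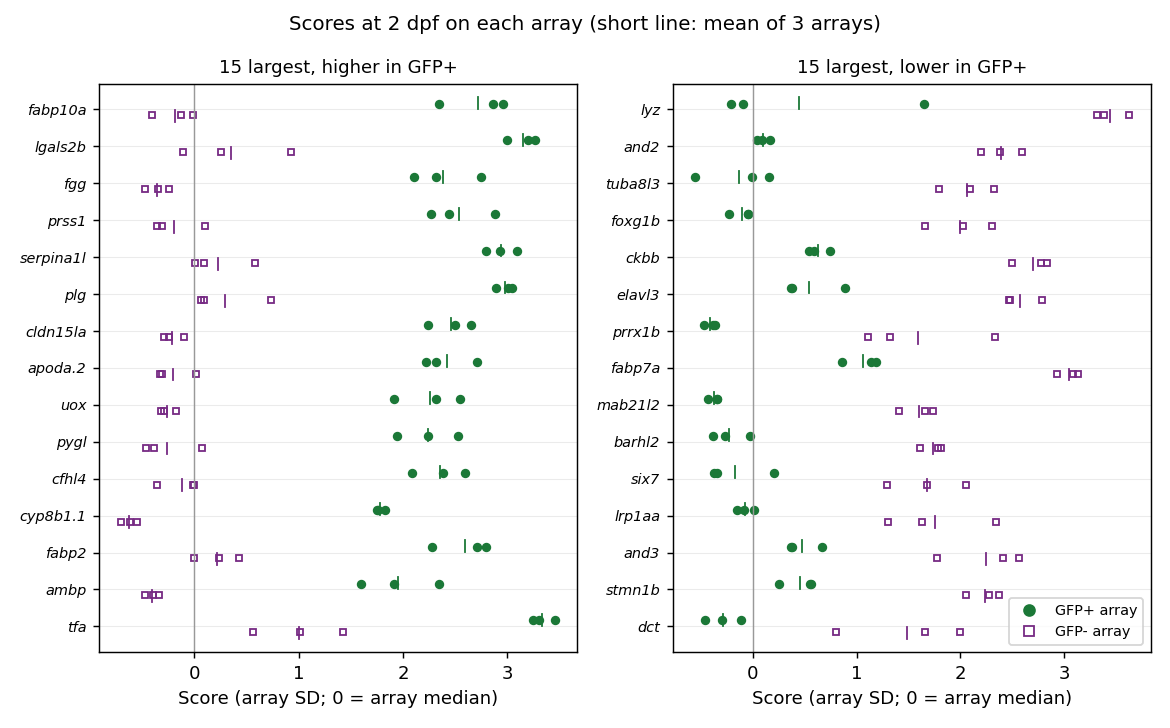
Scores in array SD (horizontal axis, 0 is the array median) of the 15 genes with the largest difference each way at 2 dpf, with filled circles for the 3 GFP+ arrays, open squares for the 3 GFP- arrays and short lines for means. Circles and squares do not overlap for any of the 30 genes; the widest spread within a gate is that of lyz in GFP+ cells, where the third array lies at 1.65.

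Of 35 measured endodermal and digestive transcription factors, 14 were higher in GFP+ cells and none was lower, beside 12.3% and 7.71% of all genes; 15 of the 50 listed had no probe set here. The forkhead gene foxa1, a pioneer factor of endoderm, had 1.56, 1.75 and 1.54 on the GFP+ arrays and 0.14, -0.27 and -0.49 on the GFP- arrays, and differed by 1.82 ± 0.20 (adjusted p = 3.86e-06). The GATA factor gene gata6 had 1.60, 1.54 and 1.55 in GFP+ cells against -0.10, -0.15 and -0.11 in GFP- cells, a difference of 1.69 ± 0.17. Both genes gave nearly the same score on all GFP+ arrays. The other FoxA genes followed, foxa3 with 1.50 ± 0.14 and foxa2 with 0.96 ± 0.19. The liver and myeloid factor gene cebpa differed by 1.38 ± 0.20, but was above the median in both gates, with 1.97, 2.07 and 2.11 in GFP+ cells and 0.74, 0.41 and 0.85 in GFP- cells.

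The nuclear receptor and HNF genes lay lower on the scale. The receptor gene nr5a2, which acts in liver and pancreas, differed by 1.27 ± 0.17 (scores 1.02, 0.96 and 0.96 in GFP+ cells and -0.48, -0.11 and -0.29 in GFP- cells). The HNF genes hnf4a (0.86 ± 0.14), hnf4b (0.54 ± 0.14) and hnf1bb (0.79 ± 0.19), which control liver, gut and kidney genes, were also higher. The pancreas and duodenum factor gene pdx1 had -0.55, 0.37 and 0.35 on the GFP+ arrays and -0.62, -0.68 and -0.78 on the GFP- arrays, with a difference of 0.75 ± 0.20. Its first GFP+ array thus lay just above the GFP- arrays and the others well above. The cardiac and endodermal factor gene gata5 differed by 0.51 ± 0.15. The set of 14 also held 3 genes named after their values were seen: elf3, an epithelial factor (1.19 ± 0.31), hnf4g (1.03 ± 0.17) and klf3 (0.89 ± 0.24). When single arrays were left out in turn, the call was lost for pdx1 without the second or the third GFP+ array (up to 0.0797), gata5 without the first or the third GFP+ array or the first or the second GFP- array (up to 0.0961), hnf4b without the first GFP+ array (0.0703) and klf3 without the first GFP+ array or the second or the third GFP- array (up to 0.0741), with the highest adjusted p in brackets. In the fit of the 6 arrays of 2 dpf alone pdx1 did not pass (adjusted p = 0.0614).

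Several regulators of the first endoderm and of the organ buds did not pass. The early endoderm genes sox17 (mean -0.56 in GFP+ cells and -0.69 in GFP- cells) and sox32 (-0.60 and -0.51) and the pancreatic factor gene ptf1a (-0.43 and -0.55) all lay below the array median and did not pass the test. The liver bud genes hhex (0.55 ± 0.24, adjusted p = 0.132) and prox1a (0.31 ± 0.15, adjusted p = 0.196) did not pass either. For hhex the GFP+ arrays had -0.27, 0.43 and 0.60, against -0.32, -0.36 and -0.20 on the GFP- arrays, so that the first GFP+ array lay among the GFP- arrays and the gates overlapped. The GATA gene gata4 differed by 0.19 ± 0.13 and did not pass.

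**Figure D2:**
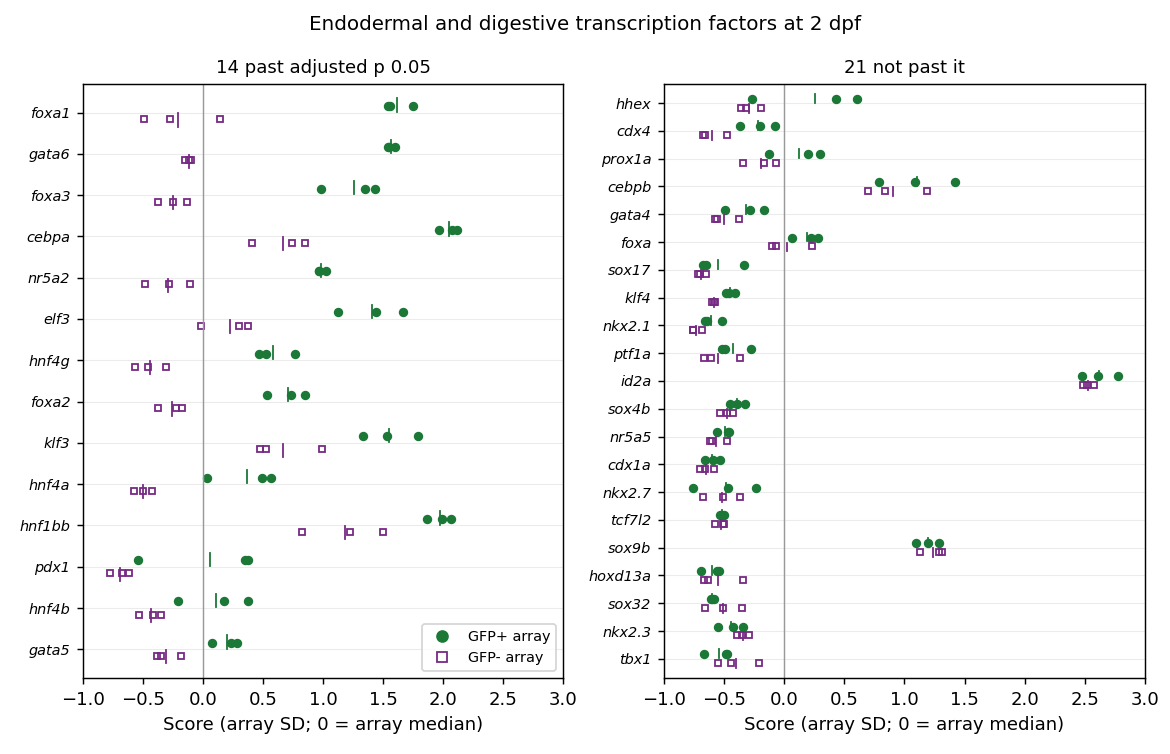
Scores in array SD (horizontal axis) of the 35 measured transcription factors of endoderm and digestive organs at 2 dpf, with 3 filled circles for GFP+ arrays, 3 open squares for GFP- arrays and short lines for means. The left panel holds the 14 past an adjusted p of 0.05, all higher in GFP+ cells, led by foxa1 and gata6; the right panel holds the 21 that did not pass, most of them below the array median in both gates.

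Of 36 measured liver genes, 26 were higher in GFP+ cells and none was lower, beside 12.3% and 7.71% of all genes. The median difference was 1.69 array SD, against 0.063 for all genes. The median score of the list was 1.43, 1.26 and 1.82 on the GFP+ arrays and -0.182, -0.316 and -0.335 on the GFP- arrays. The gates did not overlap in it. All measured fibrinogen chains were among those that passed, with fga (1.80 ± 0.32) beside fgg. The tyrosine breakdown enzyme gene fah had 1.16, 1.26 and 1.13 in GFP+ cells, against -0.07, -0.18 and 0.28 in GFP- cells, and differed by 1.17 ± 0.23. The gluconeogenic enzyme gene pck1 differed by 0.88 ± 0.23, with GFP+ scores of -0.17, 0.30 and 0.19 near the array median and GFP- scores of -0.79, -0.75 and -0.79.

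The 10 liver genes that did not pass include products that pass at later ages. The fetuin gene ahsg1 had means of -0.62 in GFP+ cells and -0.73 in GFP- cells, and the tyrosine aminotransferase gene tat -0.61 and -0.77, both below the array median. The sex hormone binding globulin gene shbg had 0.00, -0.37 and -0.23 in GFP+ cells and -0.42, -0.33 and -0.50 in GFP- cells, a difference of 0.22 ± 0.33 that did not pass. The retinol carrier gene rbp4 had 1.78, 1.80 and 2.01 in GFP+ cells, against 2.96, 2.72 and 1.95 in GFP- cells, and its difference of -0.68 ± 0.27 did not pass (adjusted p = 0.0912), but did with the replicate number as a block (0.046) and with array weights (0.0339). The apolipoprotein gene apoa1a differed by -0.07 ± 0.41, with overlapping gates (-0.18, 0.31 and 0.66 in GFP+ cells and 0.80, 0.58 and -0.36 in GFP- cells).

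Of 18 measured genes of the exocrine pancreas, 5 were higher in GFP+ cells at 2 dpf and none was lower, beside 12.3% and 7.71% of all genes. The median difference was 0.185. Beside prss1, the pancreatic protein disulfide isomerase gene pdia2 had 1.94, 1.50 and 1.30 in GFP+ cells and -0.39, -0.08 and -0.25 in GFP- cells, and differed by 1.82 ± 0.34. The carboxypeptidase genes cpb1 (1.62 ± 0.32) and cpa4 (1.50 ± 0.37) and the elastase gene cela1.6 (1.16 ± 0.39) were also higher. The other probe set of cpb1 differed by 0.543 and that of cpa4 by 1.095, and neither passed (adjusted p = 0.422 and 0.0676). The first GFP+ array had the highest score of its gate for prss1, pdia2, cpb1, cpa4 and cela1.6 alike. The elastase genes ela2 (-0.36 in GFP+ cells and -0.54 in GFP- cells) and ela2l (-0.39 and -0.50), the amylase gene amy2a (-0.45 and -0.42) and the bile salt lipase gene cel.1 (-0.34 and -0.37) did not differ past the threshold. The differences were 0.18 ± 0.39 for ela2 and -0.03 ± 0.42 for amy2a, with an SE that pools the spread of all ages. With single arrays left out, the call was lost for cela1.6 without the first or the second GFP+ array or the first or the third GFP- array (up to 0.197), with the highest adjusted p in brackets.

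The islet hormone genes ins, gcga, sst2 and sst1.1 were higher in GFP+ cells, as was pdx1, a factor of pancreas and beta cells given above. Of 15 measured islet and gut endocrine genes, 4 were higher and 2 were lower, beside 12.3% and 7.71% of all genes. The median difference was -0.060. The insulin gene ins had 2.33, 3.04 and 2.88 on the GFP+ arrays, against 1.07, 1.01 and 0.64 on the GFP- arrays, a difference of 1.85 ± 0.33 (adjusted p = 0.000511). The glucagon gene gcga had 3.12, 3.01 and 3.17 in GFP+ cells and 1.66, 1.18 and 1.57 in GFP- cells, a difference of 1.63 ± 0.24. The somatostatin genes sst2 (1.92 ± 0.33) and sst1.1 (1.11 ± 0.19) were higher as well. GFP- cells thus also carried scores above the array median for ins and gcga on all 3 arrays. The factor genes pax6b (-1.11 ± 0.18) and neurod1 (-1.08 ± 0.19), which act in islet cells and in neurons and retina alike, were lower in GFP+ cells. The scores of neurod1 were 0.31, 0.37 and 0.09 in GFP+ cells and 1.97, 1.04 and 1.00 in GFP- cells. The LIM factor gene isl1a (-0.55 ± 0.20, adjusted p = 0.0593) and insm1b (-0.08 ± 0.15) did not pass.

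Gut epithelium had 13 of 28 measured genes higher in GFP+ cells and 1 lower, beside 12.3% and 7.71% of all genes. The median difference was 0.554, against 0.063 for all genes. The list's median score was 1.22, 0.951 and 1.20 on the GFP+ arrays, against -0.380, -0.313 and -0.478 on the GFP- arrays. The lipid carrier gene apoa4b.1, made by enterocytes and the yolk layer, had 2.07, 1.78 and 1.90 in GFP+ cells and 0.34, -0.24 and -0.53 in GFP- cells, and differed by 2.06 ± 0.23. The disulfide isomerase gene agr2 of mucus cells (1.26 ± 0.26), the brush border sucrase-isomaltase gene si (1.25 ± 0.30) and the water channel gene aqp8a.1 (1.10 ± 0.25) were higher too. The galectin gene lgals2a went the other way with -0.89 ± 0.21, opposite to lgals2b. The bile acid binding protein gene fabp6 (-0.64 in GFP+ cells and -0.75 in GFP- cells), the peptide transporter gene slc15a1b (-0.37 and -0.58) and the chitinase genes chia.1, chia.2, chia.3 and chia.6 (differences between -0.13 and 0.21) did not pass. The cadherin gene cdh17 was above the median in both, with 0.25 ± 0.28.

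In the main fit, which takes no account of the replicate number, few epithelial junction and polarity genes were called. Of 39 measured, 2 were higher and 3 were lower, beside 12.3% and 7.71% of all genes, with a median difference of 0.170. With the replicate number as a block 10 were higher and 4 were lower, and without the second GFP+ or the second GFP- array 1 was higher and 2 were lower. The splicing factor gene esrp2 (0.74 ± 0.24) and the paracingulin gene cgnl1 (0.52 ± 0.12) were higher, and the keratin genes krt15 (-1.64 ± 0.37) and krt18b (-1.001 ± 0.156) and the skin claudin gene cldni (-0.81 ± 0.25) were lower. Calls were lost for esrp2 without the first or the second GFP+ array or the second or the third GFP- array (up to 0.183) and cldni without the second or the third GFP+ array or the first or the second GFP- array (up to 0.152), with the highest adjusted p in brackets. The E-cadherin gene cdh1 had 2.77, 2.55 and 2.46 in GFP+ cells, against 2.22, 2.23 and 1.89 in GFP- cells, without overlap. Its difference did not pass (adjusted p = 0.0788), but did with the block (0.0114), in a fit of the 6 arrays of 2 dpf alone (0.0363) and with array weights (0.0473). The adhesion gene epcam (0.33 ± 0.27) and the keratin gene krt8 (0.50 ± 0.25) did not pass.

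Among cell processes, the respiratory chain moved most. All 74 measured subunits of the respiratory chain and ATP synthase had a positive difference. Of these 36 passed and none was lower, beside 12.3% of all genes higher and 7.71% lower. The median difference was 0.332, against 0.063 for all genes. The median score of the list was 2.27, 2.12 and 2.36 on the GFP+ arrays, against 1.97, 1.90 and 1.85 on the GFP- arrays. The cytochrome oxidase subunit gene cox6b1 had 2.81, 2.71 and 3.09 in GFP+ cells and 1.70, 1.55 and 1.84 in GFP- cells, and differed by 1.17 ± 0.15. The acyl carrier subunit gene ndufab1b of complex I (0.64 ± 0.12) and the succinate dehydrogenase subunit gene sdhdb (0.59 ± 0.14) followed. The number that passed was 13 without the third GFP+ array, 18 without the second GFP- array and 19 without the third GFP- array. The mitochondrial chaperonin genes hspd1 and hspe1, whose products fold imported proteins as a pair, were also higher. hspd1 had 2.86, 2.79 and 3.04 in GFP+ cells, against 1.67, 1.49 and 1.70 in GFP- cells (1.27 ± 0.16), and hspe1 differed by 0.79 ± 0.12.

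Of 51 measured heat shock and immediate early genes, 3 were higher and 2 were lower (median difference 0.111), beside 12.3% and 7.71% of all genes. The counts were 7 and 2 in the fit of the 6 arrays of 2 dpf alone and with array weights, and 7 and 4 with the 6 arrays alone and the block. The higher gene beside hspd1 and hspe1, hspa4a, a cytosolic cochaperone (0.35 ± 0.10), did not pass with the replicate block (adjusted p = 0.0576). With single arrays left out it was lost for hspa4a without the first or the third GFP+ array or the first or the third GFP- array (up to 0.0829), with the highest adjusted p in brackets. The collagen chaperone gene serpinh1b (-1.21 ± 0.23) and hsp90aa1.1 (-0.81 ± 0.16), a chaperone of muscle myosin, were lower in GFP+ cells. The median score of the list was 1.59, 1.49 and 1.64 on GFP+ arrays and 1.53, 1.41 and 1.56 on GFP- arrays, so the gates overlapped.

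Of 58 measured genes for endoplasmic reticulum (ER) translocation, folding and vesicle coats, 4 were higher and 1 was lower, beside 12.3% and 7.71% of all genes. The median difference was 0.148. The signal receptor subunit gene srprb (0.79 ± 0.20), the ER chaperone gene hyou1 (0.75 ± 0.14) and srp72 of the signal recognition particle (0.43 ± 0.10) were higher, beside 1 vesicle coat gene. The ER stress factor gene creb3l2 (-0.52 ± 0.12) was lower. The main ER chaperone gene hspa5 had 2.70, 2.59 and 3.11 in GFP+ cells and 2.48, 2.30 and 2.89 in GFP- cells (0.24 ± 0.14, adjusted p = 0.299), with overlapping gates. The secretory factor gene xbp1 overlapped too, with 1.66, 1.61 and 1.76 in GFP+ cells and 1.84, 1.62 and 2.03 in GFP- cells (-0.16 ± 0.18).

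Of 71 measured ribosomal genes, 1 was higher and none was lower, with a median difference of -0.025. That 1 gene, rpl7l1 (0.57 ± 0.12), encodes a protein related to a ribosomal protein that takes part in ribosome assembly; without the third GFP- array 2 passed. Of 57 measured replication and mitosis genes, 2 were higher and 4 were lower, with a median of -0.054. Beside both lists, 12.3% of all genes were higher and 7.71% were lower. The chromatin assembly factor gene chaf1b (0.34 ± 0.07) and the licensing gene cdt1 (0.28 ± 0.08) were higher. The cyclin gene ccnb3 (-0.81 ± 0.17), the survivin gene birc5a (-0.47 ± 0.12), the topoisomerase gene top2a (-0.30 ± 0.10) and the mitotic kinesin gene kif11 (-0.37 ± 0.12) were lower. In the fit of the 6 arrays alone cdt1 did not pass (adjusted p = 0.0541). With the block top2a and kif11 no longer passed (adjusted p = 0.0782 and 0.066), and with single arrays left out the call was lost for cdt1 without the first GFP+ array or the first GFP- array (up to 0.0816), birc5a without the second GFP+ array (0.081), top2a without the first or the third GFP+ array or the second or the third GFP- array (up to 0.256) and kif11 without any 1 of the 6 arrays of 2 dpf (up to 0.148), with the highest adjusted p in brackets. The other 4 probe sets of top2a differed by 0.07, -0.08, -0.03 and 0.08. The others of ccnb3 differed by -0.84, 0.10 and -0.09. The proliferation genes pcna (0.00 ± 0.21) and mki67 (-0.40 ± 0.20, adjusted p = 0.195) did not pass.

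**Figure D3:**
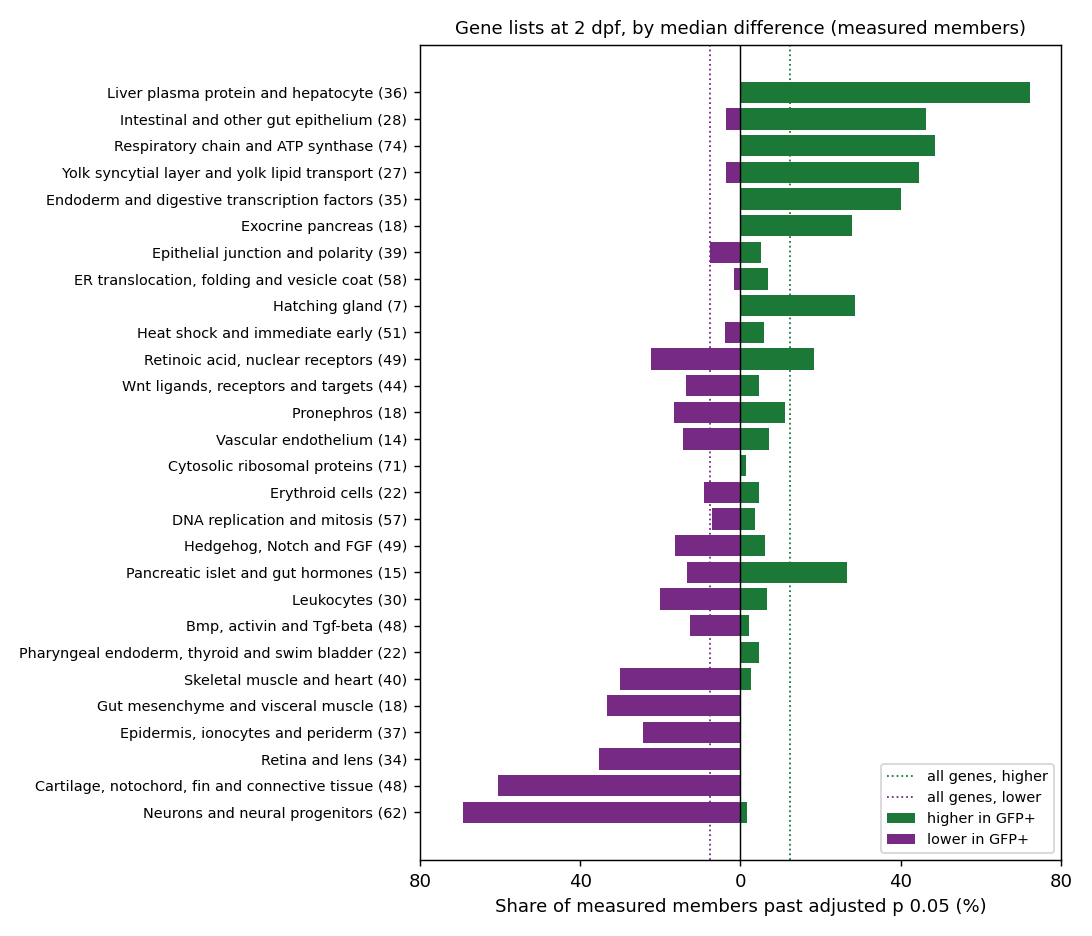
Share of measured members (number in brackets) of each of 28 gene lists that were higher (right) or lower (left) in GFP+ cells at 2 dpf at an adjusted p under 0.05, in percent, ordered by the list's median difference. Dotted lines mark the share of all genes, 12.3% higher and 7.71% lower; liver, gut and respiratory chain stand at the top, and neurons and connective tissue at the bottom.

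On the GFP- side, neurons gave the largest count. Of 62 measured genes of neurons and neural progenitors, 43 were lower in GFP+ cells and 1 was higher, beside 7.71% and 12.3% of all genes. The median difference was -0.797, against 0.063 for all genes. The median score of the list was 0.100, 0.001 and -0.183 on the GFP+ arrays, against 0.918, 0.959 and 0.890 on the GFP- arrays. The forebrain factor gene foxg1b had -0.04, -0.05 and -0.23 in GFP+ cells and 2.31, 2.03 and 1.66 in GFP- cells, and differed by -2.11 ± 0.19 (adjusted p = 6.07e-07). The neuronal RNA-binding protein gene elavl3 had 0.38, 0.89 and 0.37 in GFP+ cells and 2.47, 2.79 and 2.48 in GFP- cells (-2.03 ± 0.22), and its other 3 probe sets differed by -1.95, -1.61 and -1.21. The brain creatine kinase gene ckbb (-2.08 ± 0.27), the radial glia gene fabp7a (-1.99 ± 0.20) and the stathmin gene stmn1b (-1.78 ± 0.30) were lower too. Both ckbb and fabp7a stayed above the array median in GFP+ cells, ckbb at 0.59, 0.74 and 0.54 and fabp7a at 1.14, 1.19 and 0.86. The 1 gene that was higher, the proneural factor gene ascl1a, had 0.80, 0.99 and 1.57 in GFP+ cells and 0.29, 0.84 and 0.34 in GFP- cells, and its difference of 0.63 ± 0.19 did not pass with the block (adjusted p = 0.05, not below it). With single arrays left out the call was lost for ascl1a without the third GFP+ array or the first or the third GFP- array (up to 0.184), with the highest adjusted p in brackets.

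Of 34 measured retina and lens genes, 12 were lower and none was higher, beside 7.71% and 12.3% of all genes. The median difference was -0.373. Regulators of the eye and a first photoreceptor gene were among the 12. The homeobox gene six7 had 0.20, -0.37 and -0.34 in GFP+ cells and 2.05, 1.68 and 1.29 in GFP- cells (-1.85 ± 0.29), although its other probe set differed by 0.01. The related gene six6b differed by -1.56 ± 0.23, and the photoreceptor factor gene crx by -1.53 ± 0.27. The cone transducin gene gngt2a had -0.32, -0.48 and -0.59 in GFP+ cells and 1.88, 1.10 and 0.74 in GFP- cells, a difference of -1.71 ± 0.23. The cone opsin genes did not pass, and lay below the array median in both gates. The ultraviolet opsin gene opn1sw1 had -0.28, -0.57 and -0.54 in GFP+ cells and -0.18, -0.21 and -0.56 in GFP- cells, with overlap. The green opsin gene opn1mw1 overlapped too, with -0.18, -0.51 and -0.59 in GFP+ cells and -0.46, -0.58 and -0.56 in GFP- cells. Eye and brain regulators outside the list also stood among the 15 largest negative differences, mab21l2 of the eye (-1.98 ± 0.20) and barhl2 of retina and brain (-1.96 ± 0.30). So did the tubulin gene tuba8l3 (-2.21 ± 0.18), which encodes a microtubule subunit.

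Connective tissue and fin genes were lower nearly as often as neuronal ones, 29 of 48 measured with none higher and a median difference of -0.715. Of all genes 7.71% were lower and 12.3% were higher. The median score of the list was -0.024, -0.020 and 0.010 on the GFP+ arrays, against 0.533, 0.402 and 1.33 on the GFP- arrays, so the third GFP- array lay well above the others, and without it 18 were lower. The actinodin gene and2, which encodes a protein of the fin fold, had 0.09, 0.04 and 0.16 in GFP+ cells and 2.59, 2.20 and 2.38 in GFP- cells, and differed by -2.29 ± 0.22 (adjusted p = 1.25e-06). Its relative and3 differed by -1.78 ± 0.21. The mesenchyme factor gene prrx1b had -0.39, -0.47 and -0.37 in GFP+ cells and 1.11, 1.32 and 2.33 in GFP- cells (-2.00 ± 0.23), with the third GFP- array again the highest. The collagen gene col1a2 (-1.70 ± 0.18) and the proteoglycan gene dcn (-1.63 ± 0.18) were lower in GFP+ cells, with all GFP- arrays of dcn between 1.88 and 2.02. Outside the list, the lipoprotein receptor gene lrp1aa had -0.15, -0.08 and 0.01 in GFP+ cells and 1.63, 1.30 and 2.35 in GFP- cells (-1.83 ± 0.24), the third GFP- array once more the highest.

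Skeletal muscle and heart genes were partly lower. Of 40 measured, 12 were lower and 1 was higher, beside 7.71% and 12.3% of all genes, with a median difference of -0.194. The slow myosin gene smyhc1 had -0.69, -0.73 and -0.68 in GFP+ cells and 0.57, 0.67 and 0.17 in GFP- cells (-1.17 ± 0.12), and the troponin gene tnni2b.1 differed by -1.09 ± 0.12. The muscle determination gene myod1 (-0.38 ± 0.09) and the heart and muscle factor gene mef2ca (-0.92 ± 0.23) were lower, of which myod1 did not pass in the fit of the 6 arrays alone (adjusted p = 0.0535). The only gene that was higher was eno3, an enolase that liver also expresses, with 2.51, 2.22 and 2.94 in GFP+ cells and 1.54, 1.45 and 1.71 in GFP- cells (0.99 ± 0.18). In GFP+ cells 21 of the 40 members had a mean above the array median, against 29 in GFP- cells.

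Epidermis, ionocyte and periderm genes gave 9 lower and none higher of 37 measured, beside 7.71% and 12.3% of all genes. The median difference was -0.322. With the replicate block 13 were lower and 1 was higher. Beside krt15, the calcium binding protein genes pvalb8 (-1.20 ± 0.25) and s100a10b (-1.20 ± 0.27) were lower. For pvalb8 the GFP+ arrays had -0.32, 0.47 and -0.19, against 1.32, 1.37 and 0.88 on the GFP- arrays. The number of members above the array median was 26 in GFP+ cells and 29 in GFP- cells. In pigment cells, the melanin synthesis gene dct had -0.46, -0.11 and -0.29 in GFP+ cells and 0.80, 2.00 and 1.66 in GFP- cells (-1.77 ± 0.28).

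Of the white blood cell genes that passed, most were lower in GFP+ cells. The lysozyme gene lyz had the largest difference on the GFP- side, with -0.10, -0.21 and 1.65 in GFP+ cells and 3.31, 3.39 and 3.62 in GFP- cells (-2.997 ± 0.430, adjusted p = 5.91e-05). The third GFP+ array lay apart from the other GFP+ arrays and still below every GFP- array. Of 30 measured leukocyte genes, 6 were lower and 2 were higher, beside 7.71% and 12.3% of all genes. The median difference was -0.121, and 1 of the 2 higher genes also stands in the digestive lists. The collagenase gene mmp13a (-1.45 ± 0.25), the actin assembly gene arpc1b (-1.41 ± 0.24) and the cathepsin gene ctss2.1 (-1.12 ± 0.18) were lower. The myeloperoxidase gene mpx, a neutrophil marker, went the other way, with 1.06, 1.09 and 1.50 in GFP+ cells, against 0.23, 0.38 and -0.09 in GFP- cells (1.05 ± 0.20). Its other 3 probe sets differed by -0.31, -0.44 and 0.13, so the probe sets of mpx disagreed, and their average did not pass (adjusted p = 0.497).

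Of 22 measured erythroid genes, beside 20.0% of all genes called in either direction, 1 was higher and 2 were lower, with a median of -0.036, while none passed without the first or without the third GFP+ array and 1 passed without the third GFP- array. The embryonic globin gene hbae3 had 1.91, 2.31 and 1.42 in GFP+ cells and 2.91, 3.12 and 2.96 in GFP- cells, a difference of -1.12 ± 0.60 that did not pass (adjusted p = 0.235), although the gates did not overlap. In the fit of the 6 arrays of 2 dpf alone it passed (adjusted p = 0.00777, and 0.00172 with the block). Of 14 measured endothelial genes, 1 was higher and 2 were lower, beside 12.3% and 7.71% of all genes, with a median of -0.017. Without the first GFP+ array 2 were higher and 3 were lower, and array weights gave 2 and 4. The endothelial and blood factor gene fli1 (-1.53 ± 0.29) and the vessel claudin gene cldn5a (-0.54 ± 0.12) were lower, and the 1 that was higher, aqp8a.1, is the water channel given with the gut. Both lower genes had other probe sets that did not pass, at -0.18 for fli1 and at 0.14 and -0.01 for cldn5a. Averaged over its probe sets, cldn5a did not pass (adjusted p = 0.454). The receptor gene kdrl (-0.48 ± 0.20, adjusted p = 0.108) did not pass.

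Markers of other tissues near the gut were also counted, beside 12.3% of all genes higher and 7.71% lower. Of 27 measured yolk layer and yolk lipid genes, 12 were higher and 1 was lower (median difference 0.269), and 10 of the 12 also stand in the digestive lists. The 2 others were the apolipoprotein gene apoc2, with 2.08, 1.96 and 2.11 in GFP+ cells and -0.11, -0.04 and -0.47 in GFP- cells (2.25 ± 0.22), and the sterol carrier gene scp2a (2.03 ± 0.28). The yolk layer factor gene mxtx2 (-0.56 in GFP+ cells and -0.68 in GFP- cells) and the vitellogenin gene vtg2 (-0.60 and -0.66) lay below the array median in both gates. Of 7 measured hatching gland genes 2 were higher, agr2 and the tetraspanin gene cd63 (0.72 ± 0.19), and without the first GFP+ array only agr2 passed (cd63 at an adjusted p of 0.0662). The list's median difference was 0.123. Of 22 measured genes of pharynx, thyroid and swim bladder, 1 was higher, the ligand gene shha, and none was lower (median -0.149), 1 was lower with the block, and 2 were higher and 1 was lower without the first GFP+ array. The thyroid and lung factor gene nkx2.1 (-0.61 in GFP+ cells and -0.73 in GFP- cells), the pharyngeal factor gene tbx1 (-0.54 and -0.40) and pax9 (-0.17 ± 0.15) did not pass.

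Of 18 measured kidney genes, 2 were higher and 3 were lower (median 0.008), beside 12.3% and 7.71% of all genes. The channel gene trpm7 (0.57 ± 0.10) was higher beside hnf1bb, and the podocyte gene podxl (-0.87 ± 0.20), the kidney and brain factor gene pax2a (-1.11 ± 0.11) and the chemokine gene cxcl12a (-1.52 ± 0.22) were lower. The other probe set of trpm7 differed by 0.10 and that of pax2a by -0.08, and neither passed (adjusted p = 0.542 and 0.624). That of cxcl12a differed by -1.28 and passed. Of 18 measured genes of gut mesenchyme, 6 were lower and none was higher (median -0.254). Among them were hand2, a factor of the mesoderm beside the gut (-0.72 ± 0.17), the homeobox gene meis3 (-1.51 ± 0.20) and the growth factor gene fgf10a (-0.95 ± 0.22). The median score of the mesenchyme list was -0.270, -0.320 and -0.247 on the GFP+ arrays, against -0.132, 0.034 and 0.175 on the GFP- arrays.

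In the hedgehog pathway a ligand gene was higher in GFP+ cells and a pair of coreceptor genes was lower. The ligand gene shha had 1.40, 1.56 and 1.38 on the GFP+ arrays and 0.73, 0.47 and 0.44 on the GFP- arrays, and differed by 0.90 ± 0.21 (adjusted p = 0.00536). The coreceptor genes boc and cdon, whose products bind that ligand, were lower in GFP+ cells: boc had 0.07, 0.57 and 0.20 against 1.39, 1.53 and 2.05 in GFP- cells (-1.38 ± 0.18), and cdon differed by -1.02 ± 0.22. Of 49 measured genes of the hedgehog, Notch and FGF pathways, 3 were higher and 8 were lower, beside 12.3% and 7.71% of all genes. The median was -0.056, and without the third GFP- array 1 was higher and 6 were lower. The Notch ligand gene dla (-0.97 ± 0.14) and the FGF ligand gene fgf10a were lower, whereas the Notch ligand genes dld (0.42 ± 0.14) and jag2b (0.36 ± 0.12) were higher. Neither dld nor jag2b passed with the block (adjusted p = 0.109 and 0.0808). With single arrays left out their calls were lost for dld without any 1 array but the second GFP+ array (up to 0.174) and jag2b without any 1 array but the first GFP+ array (up to 0.151), with the highest adjusted p in brackets.

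In the Wnt pathway the secreted inhibitor gene sfrp5 was higher, with 2.02, 2.23 and 2.56 in GFP+ cells, against 1.09, 1.36 and 1.15 in GFP- cells (1.07 ± 0.17). The receptor genes fzd2 (-0.79 ± 0.17) and fzd7a (-0.72 ± 0.16) were lower. Of 44 measured Wnt genes 2 were higher and 6 were lower (median 0.012), beside 12.3% and 7.71% of all genes. In all 4 or 5 passed when the second or the third GFP+ array, or the first or the third GFP- array, was left out. In the Bmp and Tgf-beta pathways 1 of 48 measured genes was higher and 6 were lower (median -0.127), beside 12.3% and 7.71% of all genes. The ligand gene bmp5 (-0.77 ± 0.17), the ligand trap gene fsta (-0.80 ± 0.15) and the pathway targets id1 (-0.61 ± 0.13) and id4 (-1.06 ± 0.20) were lower. The 1 that was higher, the ligand gene gdf6a (0.43 ± 0.13), did not pass with the block (adjusted p = 0.0568). With single arrays left out its call was lost for gdf6a without the second GFP+ array or the first or the second GFP- array (up to 0.162), with the highest adjusted p in brackets.

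Retinoid and nuclear receptor genes had the most calls of the pathway lists. Of 49 measured, 9 were higher and 11 were lower, beside 12.3% and 7.71% of all genes, with a median of 0.031. The retinol binding protein gene rbp2a of enterocytes had 2.48, 1.96 and 2.17 in GFP+ cells and 0.83, -0.08 and 0.04 in GFP- cells (1.94 ± 0.26), and the retinal dehydrogenase family gene aldh8a1 differed by 1.86 ± 0.28. The bile acid feedback receptor gene nr0b2a (1.24 ± 0.16) was higher beside nr5a2 and hnf4a. The retinoic acid receptor gene rarga (-1.32 ± 0.25), the photoreceptor receptor gene nr2e3 (-1.36 ± 0.27) and nr2f1b (-0.98 ± 0.21) were lower. For rarga the GFP+ arrays had -0.15, 0.05 and 0.05 and the GFP- arrays 1.19, 1.35 and 1.37.

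The gate difference at 2 dpf was then set against that of the later ages, which share no arrays with it. For 863 of 15502 probe sets (5.57%) the 2 dpf difference departed from the mean of the differences at 3, 4 and 6 dpf, and for 110 (0.71%) from that at 3 dpf alone. Of the 863, 505 had a larger and 358 a smaller value at 2 dpf, that is nearer the GFP+ side or the GFP- side. The larger ones were mostly probe sets that did not pass at 2 dpf (339), with 97 called higher and 69 called lower at that age. Among the smaller ones 20 were called higher at 2 dpf, 97 called lower and 241 not called. The count of 863 was 492 to 570 without any one of 4 arrays of 2 dpf, the first or the second GFP+ array and the second or the third GFP- array. The count of 110 was 52 to 64 without any one of the first or the second GFP+ array of 3 dpf, the second GFP- array of 3 dpf, or the second or the third GFP- array of 2 dpf. When each age was fitted on its own 6 arrays, 1652 probe sets were higher at 2 dpf, and 1299 of them (78.6%) were higher at 3 dpf too, which is 51.2% of those higher at 3 dpf. At 4 dpf 798 were shared, 48.3% of the 2 dpf set and 47.2% of the 4 dpf set. At 6 dpf 899 were shared, 54.4% of the 2 dpf set and 42.6% of the 6 dpf set. Of the 1652, 63 were lower at 6 dpf. On the GFP- side 899 of 1185 (75.9%) were shared with 3 dpf, 47.5% of its set. With 4 and 6 dpf 552 (46.6%) and 713 (60.2%) were shared, and 9 of the 1185 were higher at 6 dpf. Fits of single ages called 2535, 1689 and 2108 probe sets higher at 3, 4 and 6 dpf, and 1891, 1142 and 1947 lower. The main fit called 2244, 2946 and 3603 higher at those ages, and 1859, 1750 and 2312 lower. The smaller shares at 4 dpf than at 3 dpf thus came with fewer calls in the fit of 4 dpf alone. Whether they reflect a change in the transcripts was not tested.

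Among products of liver and pancreas that led at 2 dpf, fabp10a, prss1, tfa, plg and serpina1l had a larger gate difference at 2 dpf than over the later ages, while for fgg, uox, pygl, cyp8b1.1, cfhl4 and ambp the difference between ages did not pass. Averaged over its probe sets, plg did not pass either (0.162, adjusted p = 0.815). fabp10a had means of 2.72 ± 0.33 at 2 dpf and 4.07 ± 0.11 at 6 dpf in GFP+ cells (SD, n = 3), against -0.18 ± 0.20 and 3.67 ± 0.07 in GFP- cells. Its gate difference at 2 dpf was larger than the mean of the later ages by 1.91 ± 0.28 (adjusted p = 0.000379), and the later values were 1.81, 0.78 and 0.40 at 3, 4 and 6 dpf. The same held for prss1, which had 2.53 ± 0.32 at 2 dpf and 4.26 ± 0.09 at 6 dpf in GFP+ cells, against -0.19 ± 0.25 and 3.98 ± 0.13 in GFP- cells. GFP- scores of tfa were already 1.00 ± 0.43 at 2 dpf and 3.02 ± 0.27 at 6 dpf, with 3.33 ± 0.11 and 3.76 ± 0.07 in GFP+ cells. Of the liver list, 32, 33 and 33 of 36 members were higher at 3, 4 and 6 dpf, beside 18.5%, 23.2% and 25.8% of all genes.

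Another set of genes, most of them for liver products, did not pass at 2 dpf and was higher in GFP+ cells at every later age. shbg had -0.20 ± 0.19 at 2 dpf and 1.84 ± 0.25 at 3 dpf in GFP+ cells, against -0.42 ± 0.09 and -0.27 ± 0.10 in GFP- cells, and its gate difference at 2 dpf less the mean of the later ages was -1.95 ± 0.38. The pentraxin genes crp3 (-1.97 ± 0.33) and crp (-1.58 ± 0.37) of the acute phase response, the complement gene c3a.6 (-1.69 ± 0.34) and the protease inhibitor gene a2m2f (-1.68 ± 0.45) also had a smaller difference at 2 dpf. So did fads2, a desaturase of long fatty acids (-1.60 ± 0.27), and the creatine kinase gene ckba (-1.55 ± 0.22). For cpn1 and fn1b the direction turned. The carboxypeptidase N gene cpn1 differed by -0.78 ± 0.26 at 2 dpf and by 0.85, 1.39 and 1.76 at 3, 4 and 6 dpf, and the fibronectin gene fn1b by -0.83 ± 0.25 at 2 dpf and by -0.06, 0.96 and 1.67 later. Their 2 dpf calls were lost for cpn1 without the first or the second GFP+ array or the first or the third GFP- array (up to 0.211) and fn1b without any 1 array but the third GFP- array (up to 0.172), with the highest adjusted p in brackets. The calls between ages were lost for a2m2f without any 1 of the 6 arrays of 2 dpf (up to 0.0795), crp without the first GFP+ array (0.0504) and, among pancreatic genes, cpa5 without the second GFP+ array or the third GFP- array (up to 0.0857), all arrays of 2 dpf. The pancreatic carboxypeptidase gene cpa5 had -0.02 ± 0.19 at 2 dpf and 2.81 ± 0.23 at 3 dpf in GFP+ cells, against 0.49 ± 0.43 and 0.63 ± 0.26 in GFP- cells. In the exocrine list 13, 17 and 6 of 18 members were higher at 3, 4 and 6 dpf, against the 5 at 2 dpf. Of all genes 18.5%, 23.2% and 25.8% were higher at those ages, and 12.3% at 2 dpf.

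**Figure D4:**
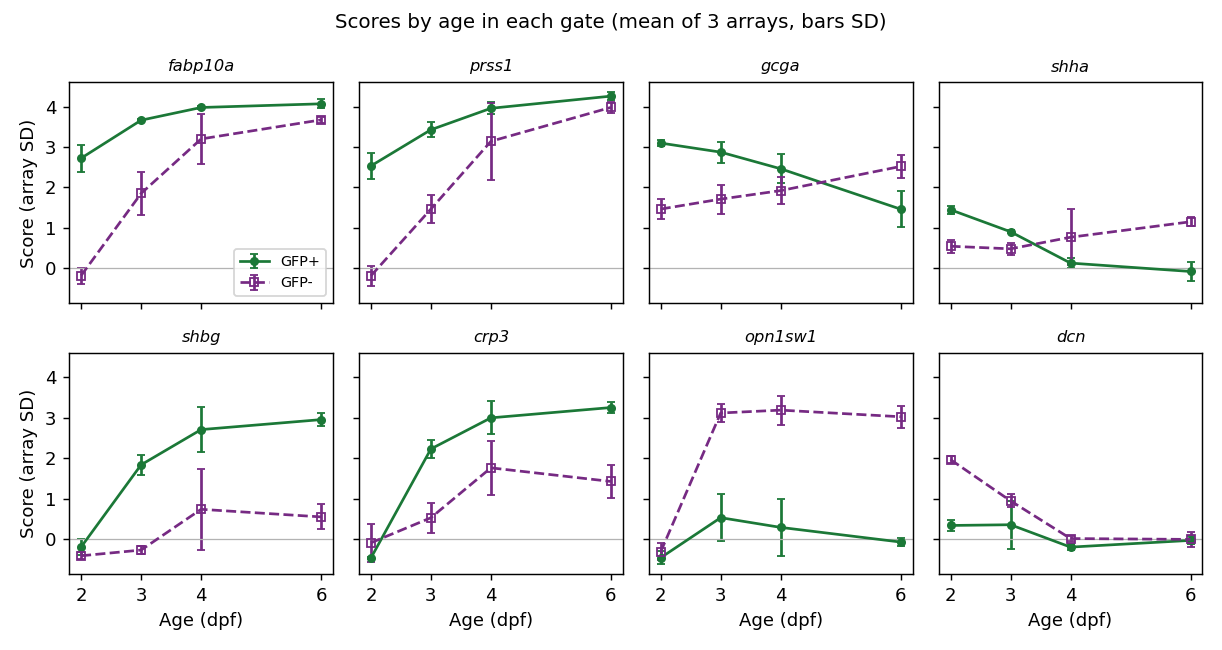
Scores in array SD (vertical axis, mean of 3 arrays, bars SD) by age in dpf (horizontal axis) for 8 genes, with filled circles for GFP+ cells and open squares for GFP- cells. The gates are furthest apart at 2 dpf for fabp10a, prss1, gcga and dcn, are close together at 2 dpf for shbg, crp3 and opn1sw1, and change order between 2 and 6 dpf for gcga and shha.

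The genes gcga and shha had their largest GFP+ excess at 2 dpf. gcga had 3.10 ± 0.09 at 2 dpf and 1.46 ± 0.44 at 6 dpf in GFP+ cells, against 1.47 ± 0.26 and 2.52 ± 0.28 in GFP- cells, so that its gate difference of 1.63 at 2 dpf was 1.16, 0.54 and -1.06 at 3, 4 and 6 dpf. For 8 of the 15 endocrine genes the difference was larger at 2 dpf than later and for none was it smaller, beside 3.56% and 2.98% of all genes. A larger difference need not be a GFP+ excess. Among the 8 were neurod1, isl1a and insm1b, whose differences at 2 dpf were negative. shha had 1.45 ± 0.10 at 2 dpf and -0.08 ± 0.25 at 6 dpf in GFP+ cells, against 0.54 ± 0.16 and 1.15 ± 0.11 in GFP- cells. The calcium binding protein gene s100z was higher at 2 dpf, with 2.68, 2.18 and 1.18 in GFP+ cells and 0.21, 0.04 and -0.29 in GFP- cells (2.03 ± 0.34), and differed by 1.51, -0.88 and -1.25 at 3, 4 and 6 dpf. The cytochrome oxidase subunit gene cox4i2 was the exception of the respiratory chain, higher by 0.91 ± 0.27 at 2 dpf and at -0.37, -1.74 and -1.54 later. Its 2 dpf call was lost for cox4i2 without the first or the second GFP+ array or the second or the third GFP- array (up to 0.158), with the highest adjusted p in brackets, and in the fit of the 6 arrays of 2 dpf alone (0.0811).

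Of the 10 genes with the largest positive departure of the 2 dpf difference, 7 act in cone photoreceptors, and in all 7 the GFP- excess of later ages had not passed at 2 dpf. The phosphodiesterase gene pde6c had means of -0.47 ± 0.11 at 2 dpf and -0.06 ± 0.54 at 3 dpf in GFP+ cells, against -0.69 ± 0.16 and 2.62 ± 0.35 in GFP- cells, and its gate difference departed by 2.97 ± 0.31 (adjusted p = 1.64e-05). opn1sw1 (2.72 ± 0.33), opn1mw1 (2.68 ± 0.29), the blue opsin gene opn1sw2 (2.58 ± 0.34), pde6hb (2.31 ± 0.30), the phosducin gene pdcb (2.26 ± 0.24) and the transducin gene gngt2b (2.17 ± 0.32) did likewise. Beside them stood the synaptotagmin gene syt5a (2.32 ± 0.28) and the nucleotide kinase gene nme2a (2.18 ± 0.28). At 2 dpf none of these 9 genes differed past the threshold. Of the 34 retina and lens genes, 28, 25 and 26 were lower in GFP+ cells at 3, 4 and 6 dpf, against 12 at 2 dpf and beside 11.9%, 12.1% and 15.6% of all genes.

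Some connective tissue and muscle genes ran the other way, with their largest GFP- excess at 2 dpf. dcn had 0.34 ± 0.13 at 2 dpf and -0.04 ± 0.10 at 6 dpf in GFP+ cells, against 1.97 ± 0.08 and -0.01 ± 0.18 in GFP- cells, and prrx1b differed by -2.00 at 2 dpf and by -0.92, -0.43 and -0.24 later. Of the 48 connective tissue genes 17, 15 and 14 were lower at 3, 4 and 6 dpf, against 29 at 2 dpf. Of all genes 11.9%, 12.1% and 15.6% were lower at those ages, and 7.71% at 2 dpf. For 6 connective tissue genes the gate difference was smaller at 2 dpf and for 1 larger, beside 2.98% and 3.56% of all genes. smyhc1 differed by -1.17 at 2 dpf and by -0.19, 0.11 and 0.04 at 3, 4 and 6 dpf. The muscle and heart list as a whole had its lowest median difference at 3 dpf. It was -0.378 with 16 of 40 lower, against -0.194 with 12 lower at 2 dpf, and 2 and 5 were lower at 4 and 6 dpf. For 5 of the 40 the difference was smaller at 2 dpf and for none larger. For protein export the excess came later. Of the 58 ER genes 33, 49 and 50 were higher at 3, 4 and 6 dpf, against 4 at 2 dpf. Of all genes 18.5%, 23.2% and 25.8% were higher at those ages, and 12.3% at 2 dpf. For 20 ER genes the difference was smaller at 2 dpf and for none larger, beside 2.98% and 3.56% of all genes. The ER translocon gene sec61a1b differed by 0.12 ± 0.15 at 2 dpf and by 0.66, 0.91 and 1.46 later. Respiratory chain genes were higher in number as well, with 39, 67 and 69 of 74 at 3, 4 and 6 dpf. The shares of all genes at these ages were 18.5%, 23.2% and 25.8%. The respiratory chain difference was nevertheless larger at 2 dpf for 1 gene and smaller for 1, beside 3.56% and 2.98% of all genes.

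**Figure D5:**
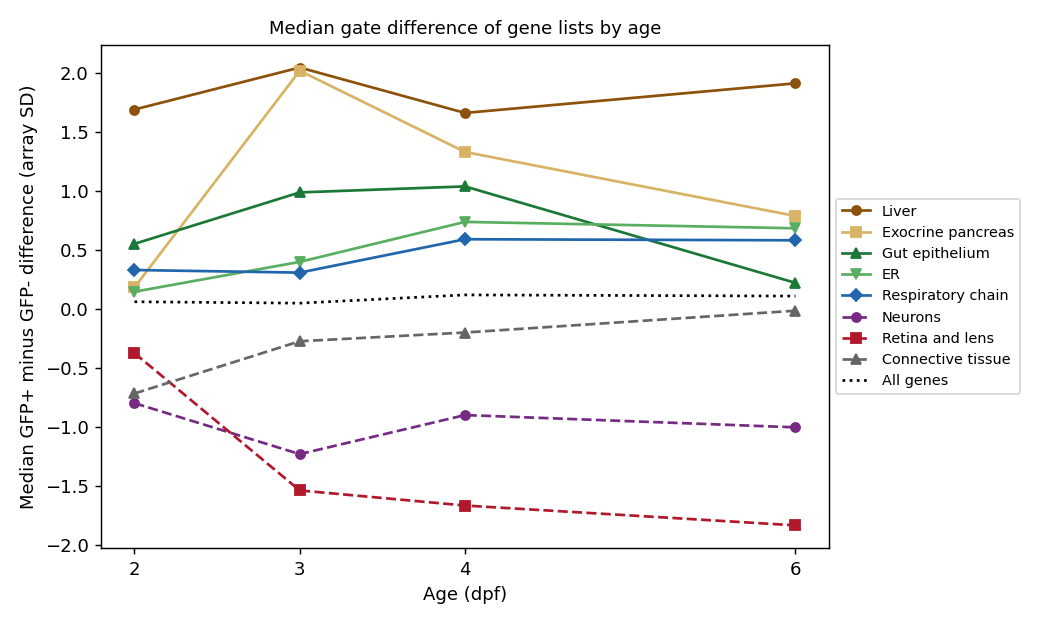
Median GFP+ minus GFP- difference in array SD (vertical axis) of 8 gene lists by age in dpf (horizontal axis), with the median of all genes dotted. Liver genes lie at 1.66 to 2.05 at every age, the exocrine pancreas at 0.185 at 2 dpf and 2.02 at 3 dpf, and connective tissue at -0.715 at 2 dpf and -0.013 at 6 dpf.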

How the data were processed

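RNA of sorted GFP+ and GFP- cells was amplified and hybridized to Affymetrix zebrafish arrays, 1 sample per array, per the labels' protocols. The values used are the deposited scores of the series matrix. RMA is named in the submitters' processing notes, and the step that gives each array a median of 0 and an SD of 1 was found from the values. The labels state neither the log base nor the array software version. The test had been planned for log2 values and was kept for these scores. How well the scores meet its assumptions was not tested. The test took in 15502 of 15617 probe sets, all but the 115 controls, with no filter on low values. GEO's platform annotation gave 1 symbol to 10795, several to 135 and none to 4572; 10711 were matched to RefSeq's gene table by gene ID, and 1 symbol changed. A gene was represented by its probe set of highest mean over the 24 arrays, which gave 8793 genes.

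limma 3.58.1 in R 4.3.3 was fitted to the 8 group means of 24 arrays (16 residual and 3.59 prior degrees of freedom), with contrasts for each age and between ages, tested two-sided, and Benjamini-Hochberg adjustment over all probe sets. On simulated scores of 15502 probe sets the 2 dpf test recovered 86% of 100 true differences of 1 array SD and 38% of 100 of 0.5. Far fewer probe sets differed in the simulation than passed in the data, so these rates may not hold for the data. The number of arrays limits the precision, and nothing says whether replicates came from separate clutches, so the p-values refer to the spread among these samples, which may be technical. The series design ties each replicate number to 1 GFP+ and 1 GFP- sample, so the numbers pair the samples. At 2 dpf the deviations of same-numbered arrays correlated at 0.0289 to 0.0307, and those of other numbers at -0.0451 to 0.0132. At 3 dpf the values were -0.044 to 0.178 and -0.195 to 0.0548, and at 4 dpf 0.0812 to 0.312 and -0.297 to 0.173. At 6 dpf they were -0.0789 to 0.0564 and -0.101 to 0.106. The main fit leaves the pairing out. The replicate number was a block in an alternative.

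The genes named are the 15 with the largest called difference each way at 2 dpf, the 10 with the largest called change of that difference between 2 dpf and the later ages each way, and, for each of 28 lists, up to 4 called members each way plus its defining members. The comparison, lists and rule were chosen with earlier results of these data known. A list is given by counts and median beside those of all genes, with no test of the list. The alternatives were quantile normalization, array weights, a trended robust prior, the 6 arrays alone, a minimum difference or mean score, probe set averages and leaving out each array. A planned description of promoter motifs was not made, since promoter sequences were not used here.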

Additional observations from a re-analysis of the deposited data

Results flagged for a closer look

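The gate difference at 2 dpf departed from the mean of the later ages, by limma's test of that contrast, for 863 probe sets, and from that at 3 dpf for 110. Among the genes named above, 63 departed from the mean of the later ages. Values are the 2 dpf difference less that mean, in array SD, and a positive one means nearer the GFP+ side at 2 dpf.

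Cone and other photoreceptor genes had positive departures, pde6c by 2.97, opn1sw1 by 2.72, opn1mw1 by 2.68, opn1sw2 by 2.58, pde6hb by 2.31, pdcb by 2.26, gngt2b by 2.17 and gngt2a by 0.98. So had syt5a by 2.32, s100z by 2.24, nme2a by 2.18 and cox4i2 by 2.13. Products of liver and exocrine pancreas on the positive side were fabp10a at 1.91, prss1 at 1.70, tfa at 1.52, plg at 1.38 and serpina1l at 1.38; averaged over its probe sets, plg had 0.162 and did not pass (adjusted p = 0.815). Gut genes there were lgals2b at 1.64, agr2 at 1.45, cldn15la at 1.44, rbp2a at 1.42, fabp2 at 1.34 and the junction gene cgnl1 at 0.50. The endocrine genes gcga (1.42), sst2 (1.43), neurod1 (1.01), isl1a (0.95) and insm1b (0.87), the proneural gene ascl1a (1.48), the factors foxa1 (0.94) and foxa3 (0.80) and the ligand genes shha (1.39) and jag2b (0.53) were positive as well.

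Negative departures were found for genes of liver products and metabolism, cpn1 (-2.11), crp3 (-1.97), shbg (-1.95), c3a.6 (-1.69), a2m2f (-1.68), fads2 (-1.60), crp (-1.58), rbp4 (-1.23), tat (-1.20) and ahsg1 (-0.87). The fibronectin gene fn1b (-1.68) and the creatine kinase gene ckba (-1.55) were negative too. The pancreatic gene cpa5 (-1.96), the gut genes chia.6 (-1.26) and lgals2a (-0.91) and the factor hnf4b (-0.64) were also negative. Secretory genes were sec61a1b (-0.89), xbp1 (-0.77) and creb3l2 (-0.57). On the GFP- side stood prrx1b (-1.47), dcn (-1.35), mab21l2 (-1.20), smyhc1 (-1.16), podxl (-1.18), tnni2b.1 (-0.90), tuba8l3 (-0.89), dla (-0.81), fzd2 (-0.79), top2a (-0.51) and myod1 (-0.39). Averaged over its probe sets top2a had -0.196 (adjusted p = 0.127), and myod1 had -0.331 after quantile normalization (0.0745), neither of which passed.

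When each of the 24 arrays was left out in turn, 40 of the 63 passed every time and 23 did not. Arrays are of 2 dpf unless another age is given, and the highest adjusted p stands in brackets. Among transcription factors the call was lost for foxa1 without the second GFP+ array or the second or the third GFP- array (up to 0.0878), and hnf4b without the second GFP+ array or the first or the second GFP- array (up to 0.111). Among liver genes the call was lost for serpina1l without the first or the third GFP+ array or the second or the third GFP- array (up to 0.084), ahsg1 without the first or the second GFP+ array or the third GFP- array (up to 0.0576), tat without the second or the third GFP+ array or the second or the third GFP- array (up to 0.0842), rbp4 without the first or the second GFP+ array or the first or the second GFP- array (up to 0.0759), a2m2f without any 1 of the 6 arrays of 2 dpf (up to 0.0795), and crp without the first GFP+ array (0.0504). Among gut and junction genes the call was lost for cldn15la without any 1 array but the second GFP+ array (up to 0.0659), fabp2 without the first or the third GFP+ array or the second or the third GFP- array (up to 0.105), lgals2a without the second or the third GFP+ array or the third GFP- array (up to 0.14), and cgnl1 without the first or the second GFP+ array of 2 dpf or the second GFP- array of 2 dpf or the first GFP+ array of 3 dpf or the first GFP- array of 6 dpf (up to 0.147). Among pancreas genes the call was lost for cpa5 without the second GFP+ array or the third GFP- array (up to 0.0857), sst2 without the second or the third GFP+ array or the first or the second GFP- array (up to 0.0988), and isl1a without the first or the second GFP+ array or the second or the third GFP- array (up to 0.0746). Among secretory and mitotic genes the call was lost for creb3l2 without the second GFP+ array or the third GFP- array (up to 0.0991), xbp1 without any 1 of 13 arrays of all ages (up to 0.148), and top2a without the third GFP+ array or the second or the third GFP- array (up to 0.0681). Among other genes the call was lost for fzd2 without the first or the second GFP+ array or the third GFP- array (up to 0.0766), jag2b without any 1 array but the first GFP+ array (up to 0.0727), gngt2a without the first or the second GFP+ array of 2 dpf or the second or the third GFP- array of 2 dpf or the second or the third GFP- array of 3 dpf or the first GFP+ array of 4 dpf or the first or the third GFP- array of 6 dpf (up to 0.17), myod1 without the first GFP+ array or the second or the third GFP- array (up to 0.131), and tuba8l3 without the first GFP+ array or the third GFP- array (up to 0.0717). With the replicate number as a block, creb3l2 (adjusted p = 0.0575) and jag2b (0.0554) did not pass.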

How the results depend on the processing

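Values are numbers of probe sets, given as higher and lower in GFP+ cells where split. The count of 2638 at 2 dpf (1497 and 1141) was 2523 after quantile normalization, 2618 with the replicate number as a block, 2837 in a fit of the 6 arrays alone, 2983 with both the 6 arrays alone and the block, 2539 with a trended robust prior and 2357 among probe sets of mean score 0 or more. Averaging each gene's probe sets gave 1809 called genes in place of 1759. Array weights gave 3960 (2297 and 1663), and 1987 for the 2 dpf difference against the mean of the later ages and 402 against 3 dpf. A difference of at least 1 array SD left 579, and 331 and 66 for the contrasts between ages. A mean score of 0 or more left 553 and 38 for these contrasts between ages. With the block 1001 and 127 passed. The gene lists held 284 calls (129 and 155), and 136 (62 and 74) with a difference of at least 1. Leaving out 1 array gave 1970 to 2164 at 2 dpf, 492 to 1209 against the mean of the later ages, 52 to 146 against 3 dpf and 226 to 253 in the lists. The second count was 524 without the first and 519 without the second GFP+ array of 2 dpf, and 570 without the second and 492 without the third GFP- array. The count against 3 dpf was 57 and 63 without the first and the second GFP+ array of 3 dpf, 64 without the second GFP- array of 3 dpf, and 60 and 52 without the second and the third GFP- array of 2 dpf. Calls change with fewer arrays in the fit; the cause of the other changes was not tested. The block changed no call of the genes named other than those given above. Of 139 genes named that passed at 2 dpf, 119 passed without each of the 6 arrays in turn, and no gene reversed. Averaged over their probe sets, mpx, cldn5a and top2a did not pass (adjusted p = 0.497, 0.454 and 0.615), nor did plg and top2a between 2 dpf and the later ages (0.815 and 0.127). In the fit of the 6 arrays of 2 dpf alone, top2a, ascl1a, cox4i2, gdf6a, pdx1, cdt1 and myod1 did not pass (0.16, 0.0894, 0.0811, 0.0693, 0.0614, 0.0541 and 0.0535), while cdh1 and hbae3 did (0.0363 and 0.00777). With both those arrays alone and the block, top2a, cdt1, gdf6a, hspa4a, ascl1a and chaf1b did not pass (0.153, 0.113, 0.0865, 0.0572, 0.0518 and 0.0516), while hbae3, cdh1, isl1a, mki67, krt8 and hhex did (0.00172, 0.0182, 0.0196, 0.0356, 0.0439 and 0.0485). After quantile normalization cela1.6, jag2b, dld, ascl1a and gdf6a did not pass (0.0746, 0.0717, 0.0681, 0.0542 and 0.0529), nor did myod1 between ages (0.0745), and isl1a passed (0.0409), as it did among probe sets of mean score 0 or more (0.0383). With the trended robust prior top2a, jag2b, kif11 and dld did not pass (0.0968, 0.0641, 0.056 and 0.0502), nor did cgnl1 between ages (0.0562). With array weights hhex, isl1a, kdrl, prox1a, rbp4, gata4 and cdh1 passed (0.000534, 0.0103, 0.0196, 0.025, 0.0339, 0.0398 and 0.0473), while top2a and, between ages, gngt2a did not (0.0529 and 0.0607). In the lists, array weights moved the calls higher and lower to 5 and 4 for epithelium, 2 and 6 for pronephros, 2 and 3 for pharynx, 5 and 13 for hedgehog, Notch and FGF genes and 1 and 10 for BMP genes. The 6 arrays alone gave 5 and 4 for epithelium, 0 and 15 for epidermis and 1 and 2 for pharynx, and with the block 12 and 5, 3 and 17, and 2 and 4.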

Other observations

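Of 1539 genes with several probe sets, 122 had more than 1 called at 2 dpf, and none of these had probe sets called in both directions. That count cannot show a called probe set beside one that did not pass. Some genes named above had another probe set with a value near 0, chosen here after the values were seen. The other probe set of fsta differed by -0.01, that of pax2a by -0.08, that of fli1 by -0.18, that of trpm7 by 0.10 and that of shbg by 0.06. The other 2 of cldn5a differed by 0.14 and -0.01. Further from 0 were the other probe sets of cyp8b1.1 (0.44) and cpb1 (0.54), which did not pass (adjusted p = 0.0724 and 0.422). Those of pygl differed by 2.53 and 1.38 and passed.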
